A study of Drosophila melanogaster with 6 samples.

Results

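The genes of the mitochondrial respiratory chain and the ATP synthase were followed across 2 fragments of the Drosophila melanogaster wing imaginal disc, the epithelial pouch of the larva from which the adult wing, its hinge and the dorsal body wall are made. Members were all probe sets whose single annotated gene symbol starts with ND- (NADH dehydrogenase, complex I), Sdh and a capital letter (succinate dehydrogenase, complex II), UQCR- (ubiquinol-cytochrome c reductase, complex III), COX and a digit (cytochrome c oxidase, complex IV) or ATPsyn (ATP synthase, complex V). This gave 68 probe sets for 66 genes, out of 12443 probe sets with 1 gene symbol and 13966 for fly RNA in all. Wild-type discs of the third larval instar had been dissected into a body wall fragment and a wing/hinge fragment, and total RNA of each was measured on 3 Affymetrix arrays that the labels call biological replicates. No strain, transgene or treatment is named in the labels. In such bulk samples, fewer cells of a type and less RNA per cell cannot be told apart.

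The respiratory chain passes electrons from NADH and succinate to oxygen along the inner mitochondrial membrane and pumps protons as it does so. The ATP synthase lets the protons return through a membrane rotor and uses the flow to make ATP in a catalytic head. Most subunits are encoded in the nucleus and a small core in mitochondrial DNA, so the members here are the nuclear side of these machines. Drosophila also carries copies of many nuclear subunit genes, named with an added L for "like", a number of which are known for expression in the testis.

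Values are intensities on a linear scale. Values under 20.4, the 20th percentile of all values, were raised to that floor ahead of the log2 step. Testing required values above the floor on 3 or more of the 6 arrays. Differences are log2 body wall minus wing/hinge from limma, with p-values adjusted by Benjamini-Hochberg across the 11698 tested probe sets, and a call means an adjusted p under 0.05. Of 11 tested probe sets for body wall patterning genes 5 were called higher in body wall, and of 19 for wing pouch genes 7 were called higher in wing/hinge. Hinge patterning genes went both ways, with 1 of 11 probe sets (Ance) called higher in body wall and 4 in wing/hinge. Adult muscle precursor markers, from mesodermal cells that lie under the body wall epithelium, gave 5 of 8 probe sets called higher in body wall. The arrays also differed in their brightest values. On body wall 1, wing/hinge 1 and wing/hinge 2 the highest intensity was over 20000, and the 3' probe set of the actin control read 1.92 to 2.98 times its 5' probe set, while on the other 3 arrays that ratio was 1.12 to 1.28. Body wall 1 and body wall 2 carry aliases with the same number, and the labels do not state whether they share RNA. Differences are therefore also given within the wide-range and the narrow-range arrays where they bear on a gene.

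No member was called in either direction. The 60 tested members included none with an unadjusted limma p under 0.05, and the lowest adjusted p was 0.594. Over all probe sets tested, 0.915% were called (0.59% toward body wall, 0.325% toward wing/hinge) and 8.97% had an unadjusted p under 0.05. A fit in which the variance follows the intensity also called no member, beside 1.29% of all probe sets. Its unadjusted p was under 0.05 for SdhC and ND-B14.5A (9.39% of all), and with the split by brightest intensity as a block for SdhC and ATPsynepsilonL (9.78% of all; 0.445% called). Subunit genes other than the L copies were represented by 51 probe sets for 49 genes, of which 50 were tested. Their differences ran from -0.73 to 0.63, with a median of 0.09, beside a median of 0.03 over all probe sets tested. The median size of their differences was 0.14, beside 0.28 over all. For 41 of the 50 the 95% limma interval lay wholly inside a 2-fold change in either direction, as it did for 41.2% of all probe sets tested. Neither was particular to the subunit genes. In the glycolysis and mitochondrial lists below, the median size ran from 0.09 (glycolysis) to 0.26 (assembly and mitochondrial gene expression). The share of such intervals ran from 60% (carriers and porins) to 92.9% (citric acid cycle). Cytosolic ribosomal proteins differed, at 0.37 and 14.3%. Smaller differences remain inside the intervals of the subunit genes, so the missed threshold does not show that the fragments were alike.

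**Figure D1:**
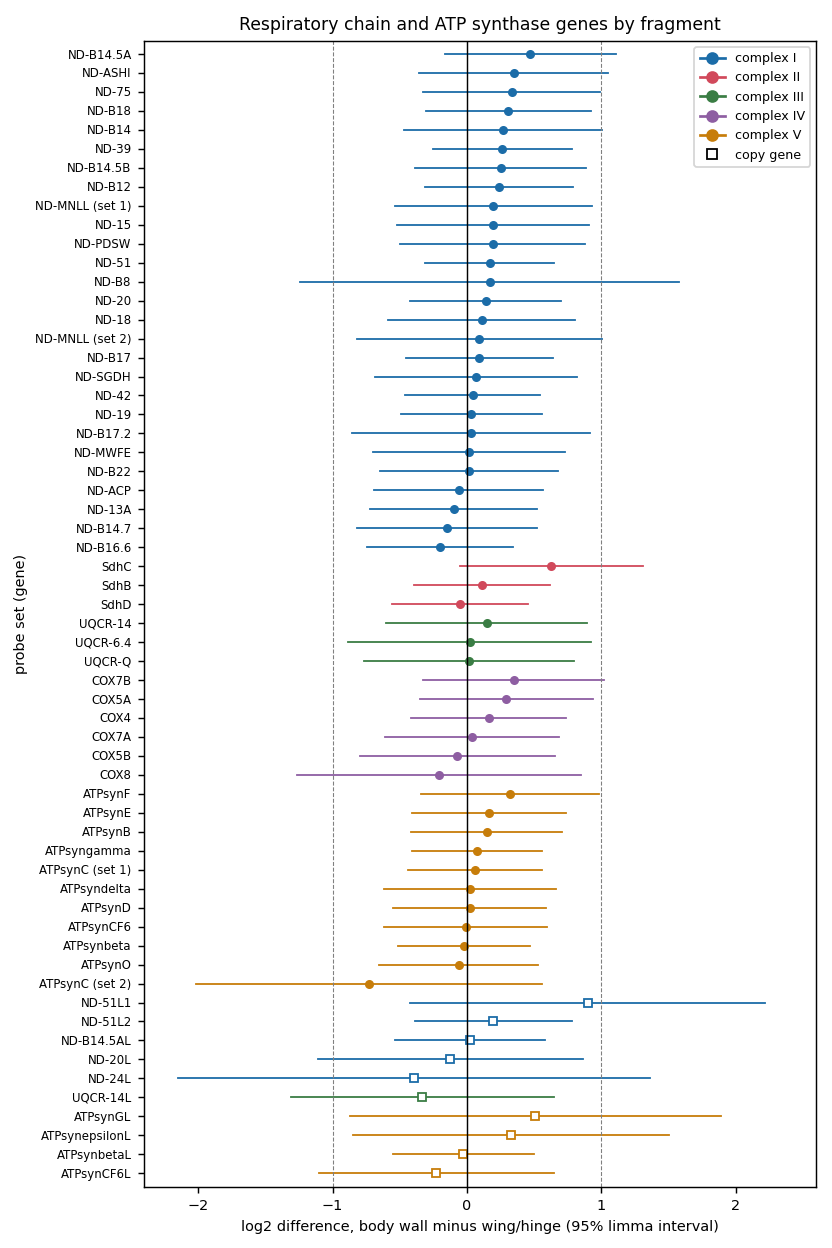
Log2 difference of each tested probe set (body wall minus wing/hinge) with its 95% limma interval, coloured by complex, and dashed lines at a 2-fold change. Filled circles are subunit genes and open squares L copies. All 60 intervals include 0, and the point farthest right among the circles is SdhC at 0.63.

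Detection separated the ordinary subunit genes from the L copies. Of the 51 ordinary probe sets, 49 lay above the floor on all 6 arrays (96.1%), against 62.5% of all fly probe sets and 6 of 17 L copies (35.3%). The L copies above the floor on every array were ND-51L2, ND-20L, ND-24L, ND-B14.5AL, ATPsynbetaL and ATPsynepsilonL. ATPsynbetaL, the copy of the catalytic beta subunit gene, measured 280, 318 and 326 in body wall and 291, 362 and 290 in wing/hinge. SdhCL was under the floor on all 6 arrays (2.70 to 10.0). The copies SdhAL, SdhBL, COX4L, COX5BL, COX6AL2 and COX7AL were above it on 1 or 2 arrays and were not tested. Of 13 probe sets for testis genes such as bam, can, aly and Mst87F, 5 were above the floor on all 6 arrays. The 8 tested all lay toward body wall (median 0.34), beside 52.7% of all probe sets tested, and none was called.

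The exceptions among the ordinary subunit genes were COX7C and ND-B8. COX7C, a small subunit of cytochrome c oxidase, measured 8.90, 11.7 and 11.6 in body wall and 7.70, 6.30 and 5.80 in wing/hinge, all under the floor, and was not tested. ND-B8, an accessory subunit of complex I, measured 3.40, 78.3 and 89.8 in body wall and 32.7, 56.0 and 55.0 in wing/hinge. The low array for ND-B8 was body wall 1 alone. Each of these genes had 1 probe set, so no other measurement of it could be set beside it.

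Complex I oxidises NADH and is the largest of the complexes. It was covered by 27 ordinary probe sets for 26 genes, all tested, and none passed the test. Their median difference was 0.14, and 23 of the 27 lay above 0. Of the catalytic core subunits encoded in the nucleus, ND-51, ND-75 and ND-20 had a probe set of their own. ND-51, which binds NADH and the flavin cofactor, measured 1306, 1308 and 1424 in body wall and 1227, 1158 and 1201 in wing/hinge. All 3 body wall values lay above all 3 wing/hinge values, in a narrow range on both sides. The means were 1346 ± 67.2 and 1196 ± 35.0 (SD, n = 3 each), and the fit gave 0.17 (SE 0.20; limma adjusted p = 0.876).

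ND-75, the largest subunit, carries iron-sulfur clusters and measured 1329, 1394 and 1895 in body wall and 1139, 988 and 1560 in wing/hinge. The groups overlapped, and array 3 was the highest of its fragment in both. The log2 difference was 0.33 (SE 0.28; limma adjusted p = 0.818). Within the narrow-range arrays it was 0.06 and within the wide-range ones 0.33. ND-20, which holds the last iron-sulfur cluster before ubiquinone, gave 0.14 (SE 0.24). Its copy ND-20L measured 33.9 to 93.0 over the 6 arrays and gave -0.12 (SE 0.41).

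The accessory subunits surround this core. ND-B14.5A had the largest difference of complex I outside the L copies. It measured 1999, 1536 and 1382 in body wall and 923, 1371 and 1259 in wing/hinge, so the fragments did not overlap, though body wall 3 and wing/hinge 2 were nearly equal. The log2 difference was 0.47 (SE 0.27; limma adjusted p = 0.702). Within the narrow-range arrays it was 0.21, but 0.83 within the wide-range ones. ND-ASHI, ND-B18 and ND-B14 followed with 0.35, 0.31 and 0.27, each with overlapping fragments.

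At the other end were ND-B16.6 at -0.20 (SE 0.23), ND-B14.7 at -0.15, ND-13A at -0.10 and ND-ACP at -0.06. ND-ACP is the mitochondrial acyl carrier protein, which is a complex I subunit as well. ND-B16.6 measured 5011, 4513 and 4283 in body wall and 5627, 5897 and 4402 in wing/hinge, with only wing/hinge 3 inside the body wall range. ND-MNLL had 2 probe sets, which gave 0.09 and 0.20. The remaining accessory genes lay between 0.01 (ND-B22) and 0.26 (ND-39).

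Among the complex I copies, ND-51L1 had the largest difference of all tested members. It measured 89.8, 43.3 and 48.6 in body wall and 69.9, 8.80 and 15.7 in wing/hinge. Wing/hinge 2 and wing/hinge 3 were under the floor, while wing/hinge 1 lay within the body wall range. The log2 difference was 0.90 (SE 0.56; limma adjusted p = 0.734) and is reduced by the floor. ND-24L, the copy of a flavoprotein subunit gene, measured 23.3 to 167.5 and gave -0.39 (SE 0.74).

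Complex II links the citric acid cycle to the chain. Its membrane anchor gene SdhC had the largest difference toward body wall and the lowest p of the ordinary subunit genes. SdhC measured 1381, 964 and 847 in body wall and 732, 782 and 533 in wing/hinge. All body wall values lay above all wing/hinge values, and array 3 was the lowest of each fragment. The means were 1064 ± 281 and 682 ± 132 (SD, n = 3 each). The fit gave 0.63 (SE 0.29) with a 95% limma interval of -0.05 to 1.31, an unadjusted p = 0.066 and an adjusted p = 0.594. The narrow-range arrays alone gave 0.76 and the wide-range arrays 0.87. With the split by brightest values as a block the limma p was 0.0101 before and 0.298 after adjustment.

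The other members of complex II did not share this. SdhB, the iron-sulfur subunit, measured 2057, 2482 and 2310 in body wall and 2295, 1977 and 2064 in wing/hinge, a difference of 0.11 (SE 0.21). SdhD, the second membrane anchor, measured 1477, 1491 and 1353 in body wall and 1490, 1658 and 1335 in wing/hinge, a difference of -0.05 (SE 0.21). For both genes the fragments overlapped. The difference between SdhC and these genes was itself not tested.

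**Figure D2:**
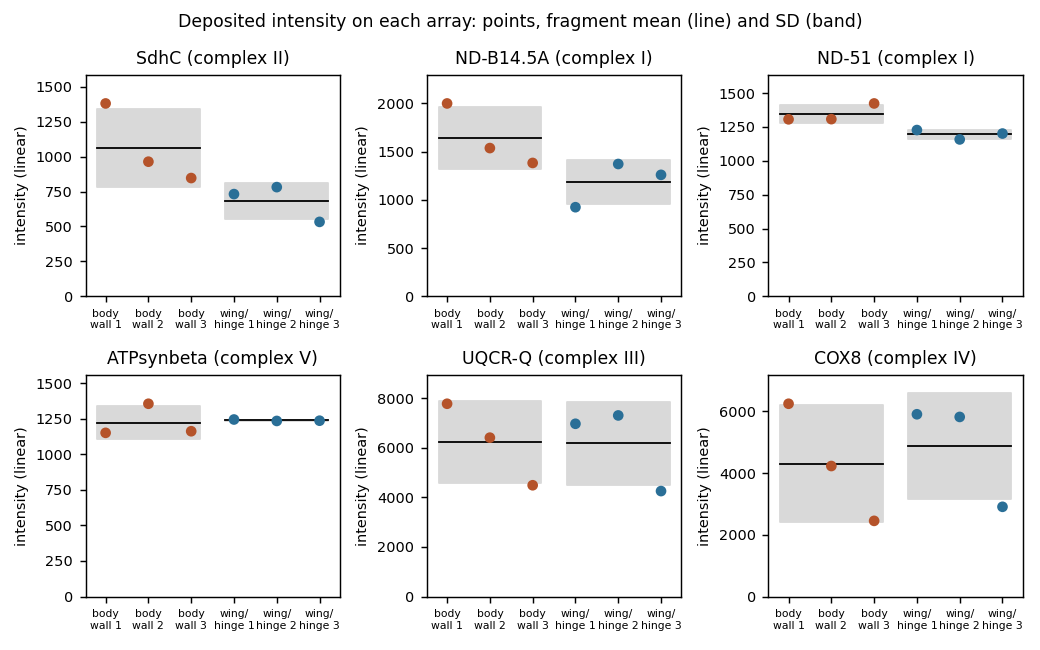
Deposited intensity on each array (linear scale) for 6 genes, with the fragment mean as a line and the SD as a band. SdhC, ND-B14.5A and ND-51 are the 3 members whose fragments did not overlap, ATPsynbeta is level, and UQCR-Q and COX8 are lowest on array 3 of both fragments.

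SdhC, ND-B14.5A and ND-51 were the only tested members whose fragments did not overlap, 3 of 60 (5%), all 3 with body wall above. Over all probe sets tested this held for 15.0%, of which 8.48% had body wall above and 6.53% wing/hinge. The members' share lies below the background, but not without body wall 3, where it was 16 of 60 (26.7%) beside 25.1% of all. The other 57 members had overlapping fragments on the deposited scale.

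Complex III hands electrons from ubiquinol to cytochrome c and was represented by 3 small accessory subunits. UQCR-Q measured 7772, 6406 and 4487 in body wall and 6965, 7301 and 4252 in wing/hinge, a difference of 0.02 (SE 0.33). UQCR-6.4 gave 0.02 (SE 0.38) and UQCR-14 0.15 (SE 0.31). In all 3 genes array 3 was the lowest of both fragments, and the spread between arrays of a fragment exceeded the difference between fragments. The copy UQCR-14L measured 13.2 to 49.4 and gave -0.33 (SE 0.41).

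Complex IV reduces oxygen to water, and its nuclear subunits surround a core encoded in mitochondrial DNA. The 6 tested genes had a median difference of 0.10. COX7B gave 0.35 (SE 0.28), COX5A 0.29 (SE 0.27), COX4 0.16 (SE 0.24) and COX7A 0.04 (SE 0.27). COX4 measured 7847, 5822 and 5466 in body wall and 5983, 5980 and 4986 in wing/hinge, where body wall 1 stood above the other 5 arrays. COX5B, the zinc-binding subunit, gave -0.07 (SE 0.30) and COX8 gave -0.21 (SE 0.44). COX8 measured 6247, 4229 and 2452 in body wall and 5906, 5819 and 2907 in wing/hinge, the widest spread between arrays in this complex. Array 3 was the lowest of both fragments in all 6 genes.

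Complex V makes the ATP. ATPsynbeta, the catalytic subunit of the head, measured 1151, 1355 and 1162 in body wall and 1245, 1234 and 1236 in wing/hinge, with means of 1223 ± 115 and 1238 ± 5.44 (SD, n = 3 each). The difference was -0.02 (SE 0.21) with a 95% limma interval of -0.51 to 0.47. ATPsyngamma, the rotating shaft, measured 5419, 5795 and 5806 in body wall and 5626, 5476 and 5061 in wing/hinge, a difference of 0.08 (SE 0.20). ATPsyndelta, also of the central stalk, gave 0.02 (SE 0.27). All 3 genes overlapped between the fragments, and the first 2 varied little between arrays.

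The peripheral stalk, which holds the head still, also gave small differences, though array 3 was the lowest of both fragments in each of its genes. ATPsynB gave 0.15, ATPsynD 0.02, ATPsynCF6 -0.01 and ATPsynO -0.06, with SEs of 0.24 to 0.25. In the membrane part ATPsynF gave 0.32 (SE 0.28) and ATPsynE 0.16 (SE 0.24). ATPsynC, which forms the proton-carrying ring, had 2 probe sets. One measured 3922 to 4701 over the 6 arrays and gave 0.06 (SE 0.21). The other measured 235, 82.1 and 59.7 in body wall and 174, 241 and 126 in wing/hinge, and gave -0.73 (SE 0.54), the most negative difference of any tested member. The latter was 0.20 on the wide-range and -0.84 on the narrow-range arrays, so this probe set and the brighter one do not give one picture of the gene. Of the complex V copies, ATPsynGL gave 0.51 (SE 0.58) and ATPsynCF6L -0.23 (SE 0.37).

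For the 50 tested ordinary probe sets the median log2 SD within a fragment was 0.29, and the median size of the difference between fragments was 0.14. Over all probe sets tested these were 0.41 and 0.28. The SD is of single arrays and the difference is between means of 3 arrays, so the larger SD says nothing about the fragments. Each probe set's log2 value was set against its own mean over the 6 arrays, and the median of this deviation was taken over the 50 tested ordinary probe sets. It was 0.22 on body wall 1, 0.17 on body wall 2 and -0.22 on body wall 3. In wing/hinge it was 0.06, 0.07 and -0.24. The number 3 array was thus the lowest in both fragments, while over all probe sets tested the medians ran only from -0.06 to 0.08. This pattern was noticed after the values were seen. In 36 of the 50 probe sets (72.0%) the number 3 array was the lowest of both fragments, beside 12.6% of all probe sets tested.

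**Figure D3:**
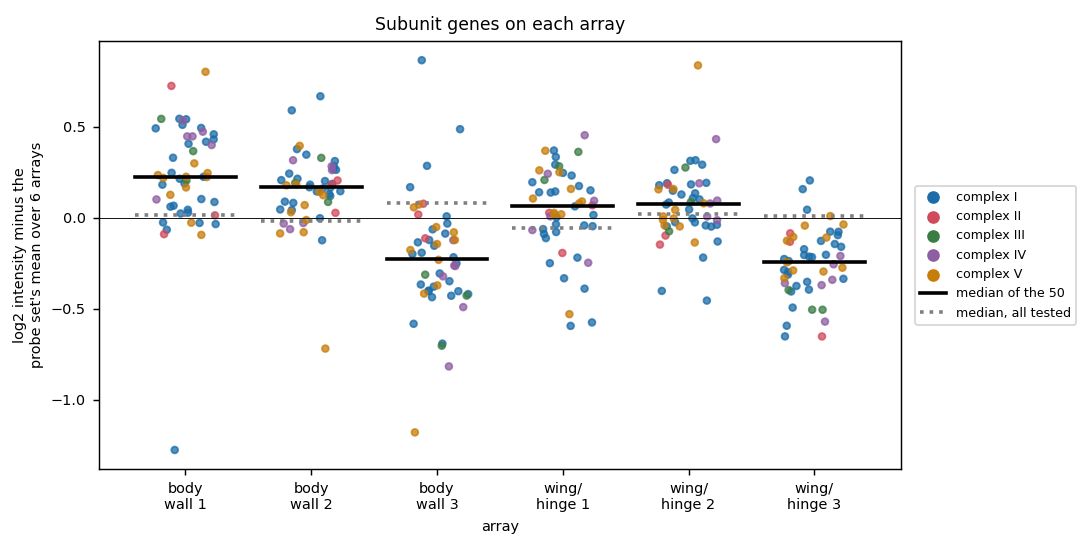
Log2 intensity of the 50 tested ordinary subunit probe sets on each array, minus each probe set's mean over the 6 arrays, coloured by complex. Black lines are medians of the 50 and dotted grey lines medians of all 11698 tested probe sets. The black lines for body wall 3 and wing/hinge 3 lie at -0.22 and -0.24, below those of the other 4 arrays.

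The low values on the number 3 arrays were not shared by every subunit. The mean of body wall 3 and wing/hinge 3 minus the mean of the other 4 arrays was below 0 for 45 of the 50 probe sets, with a median of -0.36. By complex the median was -0.37 for I, -0.18 for II, -0.70 for III, -0.49 for IV and -0.30 for V. COX8 had the most negative value at -1.04, while ATPsyngamma (-0.04), ATPsynbeta (-0.05) and SdhB (-0.01) were nearly level. The 5 probe sets above 0 were ND-B8 (0.76), ND-75 (0.52), ND-39 (0.25), ND-51 (0.07) and the brighter ATPsynC probe set (0.01). Of the complex I core genes, ND-75 and ND-51 were thus above 0 and ND-20 below it (-0.33). Among the accessory genes ND-B17.2 stood at -0.82 and ND-SGDH at -0.58. The subunit medians were 0.17, -0.22 and -0.24 on the narrow-range arrays body wall 2, body wall 3 and wing/hinge 3, and 0.22, 0.06 and 0.07 on the wide-range arrays. The actin 3' to 5' ratio was 1.12 on body wall 3, 1.21 on wing/hinge 3 and 1.28 on body wall 2. In the same order it was 2.51, 2.56 and 2.12 for the GAPDH control and 1.74, 1.44 and 1.48 for eIF-4a. The controls thus did not order these arrays alike. The part of the intensity range and of RNA quality in this pattern was not tested.

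The signs of the differences depended on the scaling and on single arrays. On the deposited scale 39 of the 50 ordinary probe sets (78.0%) lay above 0, that is toward body wall, beside 52.7% of all probe sets tested. With every array scaled to the same median it was 24 of 50 (48.0%), beside 43.3% of all, and after quantile normalization 41 of 50 (82.0%), beside 49.9%. On the narrow-range arrays 46 lay above 0 and on the wide-range arrays 38. The count was 28 without body wall 1 (56.0%, beside 53.4% of all), 29 without body wall 2, 46 without body wall 3 and 26 without wing/hinge 3 (52.0%, beside 53.0%). With body wall 1 and 2 averaged it was 28. These probe sets share the same 6 arrays, so their signs are not independent observations.

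Subunits of the same complexes that have other gene names were measured as well. Of 15 listed genes 9 had probe sets, and none of the 10 probe sets was called (median difference 0.05, range -0.36 to 0.94). The upper end was Cyt-c1L, a copy of the cytochrome c1 gene, which measured 116, 16.9 and 28.1 in body wall and 18.3, 22.5 and 8.60 in wing/hinge (SE 0.62). Body wall 1 alone was high for it. The gene blw, which encodes the alpha subunit of the ATP synthase head, measured 7140, 6411 and 7545 in body wall and 11430, 8614 and 7434 in wing/hinge, a difference of -0.36 (SE 0.25; limma adjusted p = 0.771). Only wing/hinge 3 lay within the body wall range. The Rieske iron-sulfur protein gene RFeSP gave -0.02 (SE 0.25), Cyt-c1 -0.09 (SE 0.26) and the cytochrome c oxidase subunit genes levy 0.16 (SE 0.26) and cype -0.04 (SE 0.34). All 10 had lower values on the number 3 arrays (median -0.46). Genes encoded in mitochondrial DNA were listed as well, and no probe set with 1 symbol matched them, so they were not analysed here.

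**Figure D4:**
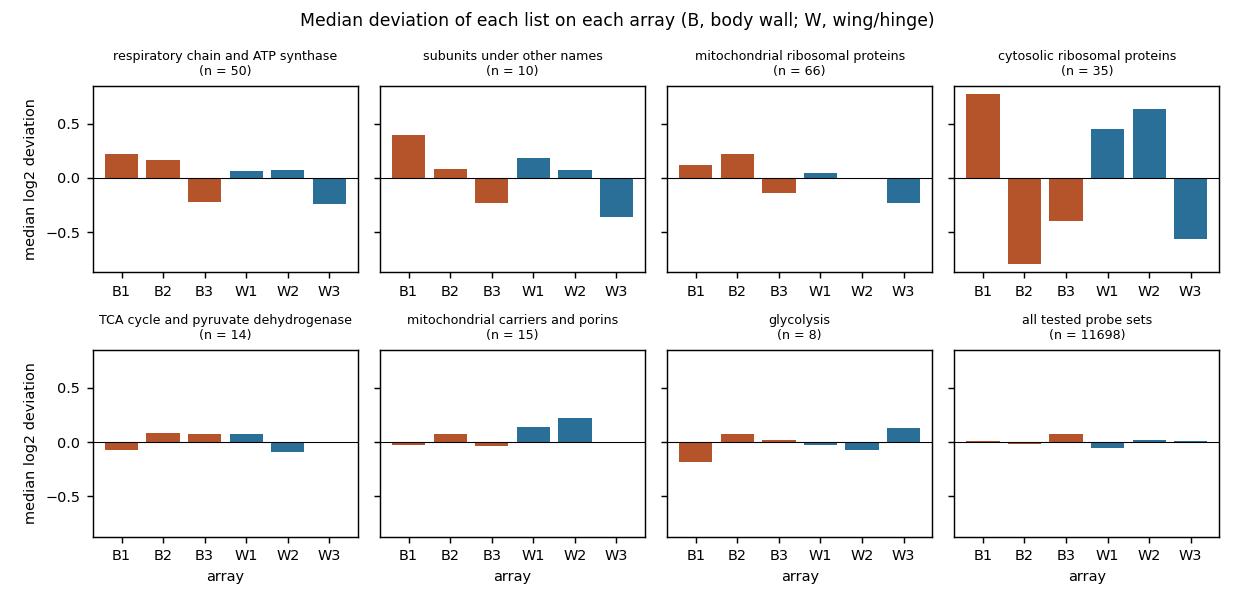
Median deviation of each gene list on each array (log2 intensity minus the probe set's mean over 6 arrays; B, body wall; W, wing/hinge). The lists of respiratory chain and mitochondrial ribosomal protein genes are lowest on B3 and W3, the cytosolic ribosomal protein list is low on B2, B3 and W3, and the list of citric acid cycle genes lies within -0.09 to 0.08.

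Neighbouring parts of metabolism were set beside the members. Of 14 probe sets for the citric acid cycle and pyruvate dehydrogenase, which feed the chain, none was called and the median difference was 0.01. For 8 glycolysis probe sets, also with no call, it was -0.05, and Pfk, the phosphofructokinase gene, measured 596, 869 and 1025 in body wall and 1556, 1094 and 1729 in wing/hinge (-0.82, SE 0.31; limma adjusted p = 0.477). Mitochondrial carriers and porins gave no call among 15 tested, with a median of -0.05 and sesB, the ATP/ADP exchanger gene, at -0.21 (SE 0.27). Respiratory chain assembly and mitochondrial gene expression gave no call among 13 tested, with a median of 0.25. In this list mtDNA-helicase, which unwinds mitochondrial DNA, measured 222, 144 and 229 in body wall and 83.9, 82.6 and 124 in wing/hinge. Its fragments did not overlap, and the difference of 1.03 (SE 0.30) did not pass the test (limma adjusted p = 0.308).

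Mitochondrial ribosomal proteins, which translate the subunits encoded in mitochondrial DNA, gave no call among 66 tested. Their median difference was 0.14, with a range of -0.38 to 0.61, and mRpS28 stood at the upper end. On the number 3 arrays their median was -0.27, and 52 of the 66 lay below 0. Cytosolic ribosomal proteins gave no call among 35 tested. Their median difference was -0.35, but -0.02 within the narrow-range arrays and 0.31 within the wide-range ones, so its sign depended on the arrays used. Their median on the number 3 arrays was -0.73. For the latter list body wall 2 was lower still (median deviation -0.79), which was not so for the respiratory chain genes. The citric acid cycle, carrier and glycolysis lists had medians of 0.04, -0.01 and 0.11 on the number 3 arrays. The list of respiratory chain assembly and mitochondrial gene expression was lowest on body wall 3 (median deviation -0.20) and wing/hinge 3 (-0.13). In 5 of its 13 probe sets (38.5%) array 3 was the lowest of both fragments, beside 12.6% of all probe sets tested. None of these differences between lists was tested.

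Among markers of other cells that the fragments can hold, Col4a1 was called of 7 tested haemocyte probe sets. All 7 lay toward body wall (median 0.82), beside 52.7% of all probe sets tested. Of the 7, srp passed the filter only through its body wall values, which fixed its direction. The ush probe set is also counted among the body wall patterning genes. The 7 fat body probe sets had a median of 0.39, the 7 tracheal ones 0.69, the 5 larval muscle ones 0.15 and the 6 for neurons and glia -0.39, with none called. Tracheal markers went both ways, from btl at 1.82 to Gasp at -0.91. By array, fat body markers stood at 0.79 on body wall 1, -0.61 on body wall 2 and 0.13 on body wall 3, and at -1.05, 0.31 and 0.12 in wing/hinge. Larval muscle markers were highest on body wall 1 (0.57) and lay between -0.28 and 0.14 on the other 5. The subunit genes had their highest median on body wall 1 (0.22) and the next on body wall 2 (0.17). On body wall 2 the fat body and larval muscle medians were below 0 (-0.61 and -0.13). The part of these cells in the subunit genes' values was not tested.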

How the data were processed

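Total RNA of 3 body wall and 3 wing/hinge fragments was hybridised to Affymetrix Drosophila arrays, and per the labels' description targets were made from about 8 ug of RNA. The deposited values are intensities on a linear scale; their 2% trimmed means lay between 297.4 and 297.8 over fly probe sets, so they were used as deposited. The software that summarised and scaled them is not given in the sources used here. The number of arrays limits the precision.

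Gene names came from the platform annotation, and all 68 member probe sets matched RefSeq Release 6 by gene ID with the same symbol. A further 4 probe sets pair a member symbol with another gene and were left out, as were 44 control probe sets. Tests used limma 3.58.1 in R 4.3.3 (lmFit, eBayes, two-sided, no block), fitted over all 11698 probe sets that passed the filter. The fit was tested on simulated data. Samples were grouped by title. Nothing says that replicates came from separate animals, so p-values measure the spread between these samples.

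Members and lists were chosen with earlier results of these data known. Named were core subunits, the extremes of each complex, members that failed the filter, those with several probe sets, and list extremes; genes of the number 3 pattern were chosen after their values were seen. List genes were matched by symbol, or by gene ID through RefSeq synonyms. The title numbers were checked for pairing: deviations from the group means correlated at 0.06, -0.16 and 0.19 for numbers 1, 2 and 3 over all tested probe sets, so they were not taken to pair the samples. Alternatives covered scaling, floor, filter, variance model, blocks, array subsets, averaging of body wall 1 and 2, and each array left out.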

Additional observations from a re-analysis of the deposited data

How the results depend on the processing

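No member was called under any of the 20 alternatives. The fits on the wide-range or the narrow-range arrays alone called 0 of all 11698 probe sets, so they say nothing about the members. Over the alternatives the lowest limma adjusted p was 0.159, for SdhC with the replicate block and an intensity trend together, a setting added after seeing the data. Members with an unadjusted limma p under 0.05 numbered 0 in the fit used for the results (8.97% of all probe sets). They numbered 2 with the block by brightest values (SdhC and ATPsynepsilonL, beside 9.78% of all) and 2 with an intensity trend (beside 9.39% of all). A trend and robust fit gave 2, as did the replicate block and trend (SdhC and ND-B14.5A in all 3 trend fits). Without the filter there was 1 (ND-51), and with single arrays left out 0 to 2. Where no share is printed here, that over all probe sets is not given, and the count cannot be weighed. With the replicate block alone the count was 1 (ND-51L1), and the calls over all probe sets went from 107 to 10. Whether equal numbers mark a shared preparation is not stated in the labels. Over all tested probe sets not every array correlated best with its own number, and over the members the correlations were 0.28, 0.09 and 0.56 for numbers 1, 2 and 3. Members whose fragments did not overlap numbered 6 after quantile normalization (9.84%, beside 15.2% of all) and 0 with equal medians (beside 14.2%). With no filter they numbered 5 of 68, among them SdhCL and COX7C, which were under the floor on all 6 arrays. The share over all probe sets is not given for that setting, so this count cannot be weighed. Left out in turn, body wall 1, 2 and 3 gave 8, 4 and 16 members without overlap, and wing/hinge 1, 2 and 3 gave 5, 6 and 8. Of all probe sets, 22.9% to 26.0% did not overlap in these settings. Smaller groups overlap less often, so these counts cannot be set against those from all 6 arrays. The members' median difference ran from -0.01 to 0.21 with single arrays left out and moved by less than the spread between arrays (0.19) in all settings. The low medians of body wall 3 and wing/hinge 3 held under both other scalings. Of 1198 differences of single members under the alternatives 1178 stayed within 1 SD and 20 moved further, none past the threshold. Within each set of 3 arrays 1 fragment has a single array, assumed to vary like the other. Dim probe sets, most of them L copies, are limited by the floor. Other causes of these shifts were not tested.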
